A study of Mus musculus with 18 samples.

Results

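Securin, encoded by Pttg1, and 9 genes of the separase-cohesin system were followed in 18 RNA sequencing libraries of mouse oligodendrocyte progenitor cells (OPCs). These are the dividing cells of the central nervous system that mature into myelin-forming oligodendrocytes. The 10 genes were chosen by name from a table of 38046 gene symbols: Pttg1, Espl1, Rad21, Smc1a, Smc3, Stag1, Stag2, Wapl, Cdca5 and Sgol1. The table listed 9 of the names as given and Wapl under its older symbol Wapal, and it held 58 transcripts of the 10 genes. Pttg1 was chosen because it was low in the control OPC libraries and high in the null OPC libraries, so its OPC values are described here without a test. The lines were clonal, grown from OPCs made from primary neural stem cells, and each clone counted as 1 replicate. There were 3 control clones (D7, D3, E8) and 3 clones null for Thap1 (3F, D6, 7F), each sampled as OPCs in growth medium with PDGF-AA (day 0) and after 2 and 4 days in oligodendrocyte differentiation medium with the thyroid hormone T3 (DIV2 and DIV4). Every group of genotype and stage therefore held 3 libraries, and the labels do not say how the null allele was made or whether the clones came from different animals. P-values therefore measure the spread between these clones.

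Sister chromatids are held together by cohesin, a ring of Smc1a, Smc3 and Rad21 with either Stag1 or Stag2 bound to it. Wapl opens the ring and takes cohesin off chromatin, Cdca5 (sororin) opposes Wapl after replication, and Sgol1 (shugoshin 1) protects cohesin at centromeres in early mitosis. At anaphase the protease separase, encoded by Espl1, cuts Rad21. Securin binds separase and holds it inactive until the anaphase-promoting complex marks securin for degradation. Thap1 is a transcription factor with a zinc-dependent DNA-binding domain.

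Values are TPM, a transcript abundance per unit of length within its library, summed over the transcripts of a gene and rescaled so that a typical gene had the same level in every library, here called rescaled TPM. Rescaling was needed because 3 noncoding RNA features held 64.8% to 88.0% of the deposited TPM in the control OPC libraries and 34.8% in the null D6 OPC library, against 0.359% to 3.17% elsewhere. TPM keeps no sequencing depth, so the depth is unknown and the precision rests on the spread between 3 clones. Summed over its protein-coding transcripts, the targeted gene Thap1 ranged from 3.36 to 4.39 rescaled TPM in control OPCs and from 0.483 to 0.776 in null OPCs, and the genotypes did not overlap at DIV2 or DIV4 either. Over all of its transcripts Thap1 was not lower in the null clones (9.80 to 12 against 4.77 to 8.21 in OPCs). The OPC library of control clone D3 stood apart: 14 mitotic cyclin and kinase genes summed to 58.8 rescaled TPM there, against 827 and 630 in the other control OPC libraries and 692 to 785 in the null ones. The 6 OPC markers measured summed to 615 to 821 in control and 416 to 531 in null OPCs, all 5 microglia markers stayed under 1 in OPCs, and the 7 oligodendrocyte markers summed to 50.4 to 506 in control and 210.0 to 313 in null OPCs. Of the OPC markers, 1 was lower in null OPCs at an adjusted p under 0.05 (limma), as were 741 of all 12462 genes. Without control clone D3 it was 2, and 1012 of all genes. No oligodendrocyte marker passed that threshold in either fit.

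Pttg1 lies on the minus strand of chromosome 11 (GRCm38, chr11:43420250-43426251), and no annotated gene overlaps it. Sequence from RefSeq promoter windows is shown for Pttg1 and for 2 partners whose levels fell with differentiation. Genes of late cell cycle often carry a CCAAT box and a cell cycle homology region (CHR) near their start. The sequences are from RefSeq (GRCm38.p6), 5′ to 3′ on the gene's strand, and end at the base before the RefSeq start. Capitals mark the CCAAT box on either strand and the CHR motif TTTGAA. An inverted box reads ATTGG. The annotated genes begin before the RefSeq start, at chr15:102296266 for Espl1 and chr19:6084983 for Cdca5. The end of the Espl1 stretch, with its TTTGAA, and all of the Cdca5 stretch thus lie inside the annotated gene. For Pttg1 the stretch shown is the part of the RefSeq upstream window that lies outside the first exons of its 3 abundant transcripts, and it is intron for them.
Espl1, chr15:102296193-102296292 (+): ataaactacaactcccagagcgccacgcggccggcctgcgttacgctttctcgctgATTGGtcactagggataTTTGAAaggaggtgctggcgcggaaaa
Cdca5, chr19:6084997-6085096 (+): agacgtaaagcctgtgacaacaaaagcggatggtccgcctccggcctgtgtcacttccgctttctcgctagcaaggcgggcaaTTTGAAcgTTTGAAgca
Pttg1, chr11:43425982-43426173 (-): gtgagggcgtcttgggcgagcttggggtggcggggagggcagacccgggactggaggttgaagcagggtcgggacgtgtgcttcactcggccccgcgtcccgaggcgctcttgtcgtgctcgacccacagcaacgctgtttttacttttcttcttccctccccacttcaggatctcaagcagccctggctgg

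RefSeq windows of 300 bases around the start were matched for 8 of the 10 genes, all but Rad21 and Stag2. The Espl1 window held an inverted CCAAT 44 bases before the start and TTTGAA 27 bases before it. Cdca5 held TTTGAA at 17 and at 9 bases before the start and no CCAAT. The Sgol1 window (RefSeq Sgo1) held CCAAT from base 3 and the CHR variant TTCGAA from base 28 after the start. Smc1a, Stag1 and Wapl held CCAAT alone, and Smc3 and Pttg1 held neither. The motif TNNGGGCA, known as a THAP1 binding motif, was in none of the 8 windows on either strand. Among 32851 RefSeq windows of this length, 37.4% held CCAAT, 17.9% TTTGAA, 1.56% TTCGAA, 13.9% TNNGGGCA and 7.52% CCAAT together with TTTGAA or TTCGAA, counting both strands. These matches describe letters in a window and are not binding sites, and DNA upstream of the first exons of the abundant Pttg1 transcripts was not analysed here.

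In OPCs, Pttg1 stood at 4.08 rescaled TPM in control clone D7, 1.21 in D3 and 3.76 in E8. The null clones 3F, D6 and 7F held 70.9, 66.3 and 76.6. Every null OPC library was thus far above every control OPC library, and the group means were 3.02 ± 1.58 for control and 71.2 ± 5.15 for null libraries (SD, n = 3). On the scale of log2(rescaled TPM + 1), on which all changes below are given, the difference was 4.26, which understates the change of low genes. In the deposited TPM the control OPC libraries held 1.19, 0.383 and 0.472 and the null ones 96.5, 47.9 and 77.9.

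At DIV2 the genotypes overlapped. Control clones D7, D3 and E8 held 5.82, 4.94 and 5.05 rescaled TPM of Pttg1, and null clones 3F, D6 and 7F held 1.88, 6.31 and 3.45. The log2 difference of null minus control was -0.46 (SE 0.39), which did not pass the test (limma with Benjamini-Hochberg adjustment, adjusted p = 0.648).

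At DIV4 the order of the genotypes was opposite to that in OPCs. Pttg1 was 8.49, 5.27 and 10.4 rescaled TPM in control D7, D3 and E8 and 1.13, 1.77 and 4.35 in null 3F, D6 and 7F, so the groups did not overlap. Some cell type markers also differed at this stage. The 6 OPC markers summed to 307 to 415 rescaled TPM in control and 174 to 213 in null clones. The 7 oligodendrocyte markers summed to 1946 to 11352 in control and 1093 to 2035 in null clones, which overlapped. Of these, 1 OPC marker and 1 oligodendrocyte marker were called lower. The 1 microglia marker tested was called higher in null clones, and astrocyte and neuron marker sums overlapped. The part of the markers in the Pttg1 difference was not tested. Taken as rescaled TPM + 1, Pttg1 was 2.78-fold lower in the null clones (log2 difference -1.48, SE 0.39, limma adjusted p = 0.0440). The group means were 8.06 rescaled TPM in control and 2.42 in null clones. Of all 12462 genes tested, 4.82% were called at DIV4 and 2.13% were called lower. The call sat close to the threshold of 0.05: it was lost without control clone D7 or E8 or any null clone (log2 difference -1.19 to -1.86), without the filter on low genes (adjusted p = 0.0914), at a pseudocount of 0.1 (0.0538) and with only the DIV4 libraries in the fit (0.160).

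Across the 6 groups the mean level of Pttg1 ran from null OPC (71.2) through control DIV4 (8.06), control DIV2 (5.27), null DIV2 (3.88) and control OPC (3.02) to null DIV4 (2.42). Null OPC lay apart from all others. Each of the remaining groups overlapped its neighbour in that order. With 4 days of differentiation Pttg1 therefore went in opposite directions by genotype, by 1.22 on the log2 scale in control and -4.51 in null clones, values that rest on the OPC libraries that led to its choice and carry no test.

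**Figure D1:**
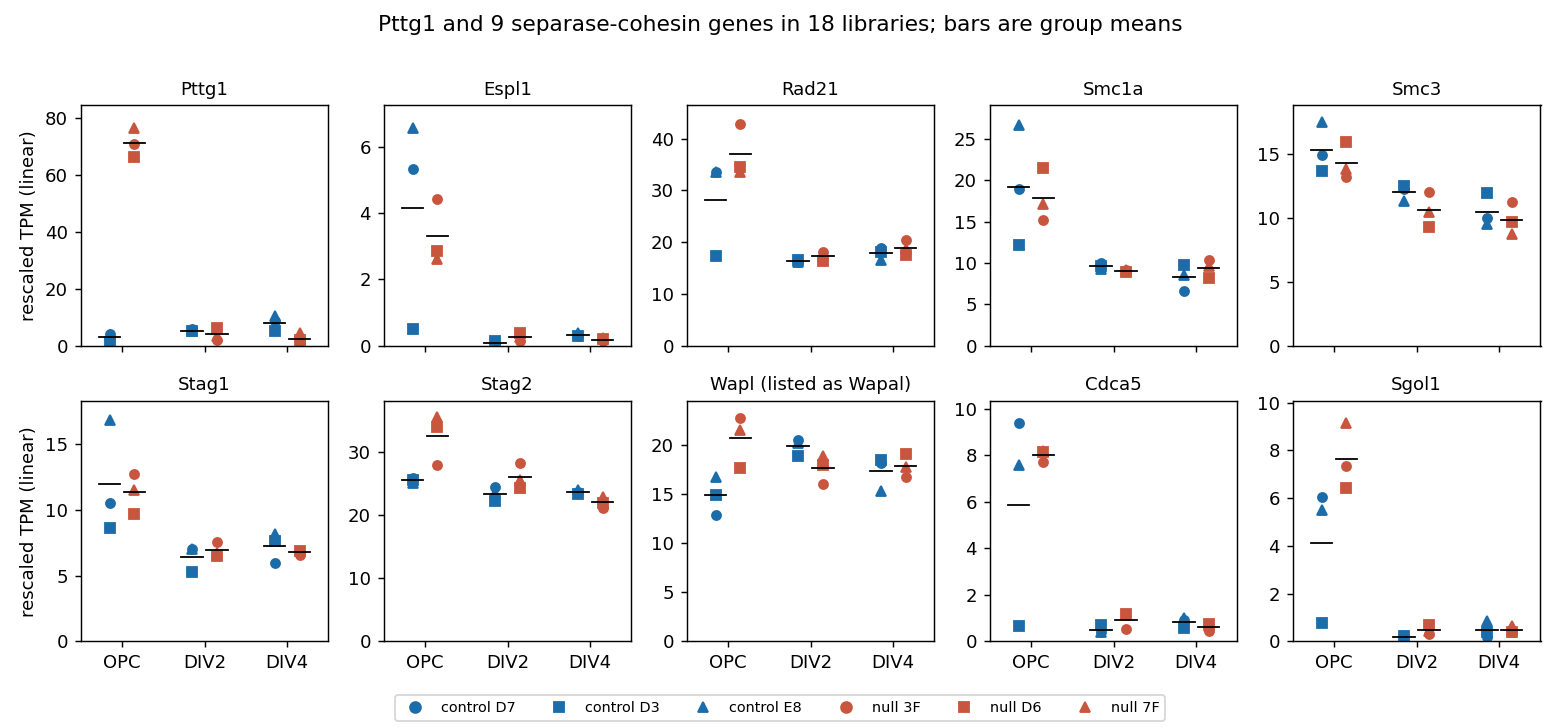
Rescaled TPM (linear axis) of the 10 genes at each stage, blue for control and red for null clones, with one symbol per clone and a bar at each group mean. Pttg1 sits at 66.3 to 76.6 in the null OPC libraries and at 10.4 or lower in all others, while the genotypes overlap in OPCs for Espl1, Rad21, Smc1a, Smc3, Stag1 and Cdca5.

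Most Pttg1 RNA was assigned to 3 of its 10 listed transcripts, ENSMUST00000020687, ENSMUST00000101340 and ENSMUST00000118368. All have the same coding exons (597 coding bases) and differ in their first, noncoding exon, at chr11:43426201-43426251, chr11:43426174-43426202 and chr11:43426189-43426217. In null OPC clones 3F, D6 and 7F, ENSMUST00000020687 held 39.2, 20.8 and 34.6 rescaled TPM, against 2.81, 0.21 and 0.72 in control D7, D3 and E8. ENSMUST00000101340 held 12.1, 22.9 and 23.1 in the null and 0.32, 0.29 and 1.12 in the control OPC clones. ENSMUST00000118368 held 16.8, 17.9 and 15.1 in the null and 0.33, 0.29 and 1.14 in the control OPC clones. Each of the 3 was thus higher in all null than in all control OPC libraries, and none of them alone carried the difference. Their shares of Pttg1 in null OPCs were 44.0% ± 12, 27.3% ± 9.07 and 23.5% ± 3.68 (SD, n = 3). At DIV4 ENSMUST00000020687 made up 66.8% ± 16.1 of Pttg1 in control and 47.2% ± 32.9 in null clones, at far lower totals. These first exons overlap or adjoin, so how reads were divided among them depends on a quantification step that is not given in the sources used here.

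**Figure D2:**
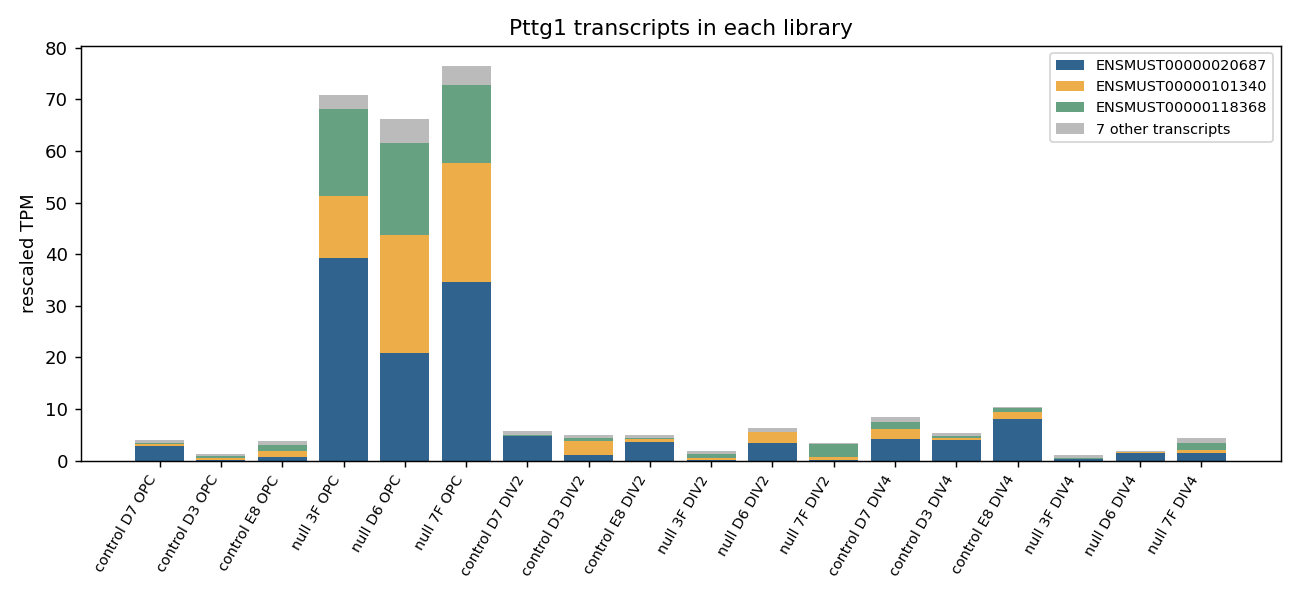
Rescaled TPM of Pttg1 in each of the 18 libraries, stacked by its 3 abundant transcripts and the sum of the 7 others. All 3 abundant transcripts are tall in the null OPC bars (39.2, 20.8 and 34.6 for ENSMUST00000020687) and small in the control OPC bars.

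Separase did not follow securin in the null OPCs. Espl1 held 5.35, 0.507 and 6.59 rescaled TPM in control D7, D3 and E8 and 4.44, 2.87 and 2.61 in null 3F, D6 and 7F. The null values lay between the lowest and the highest control, and the difference was 0.02 (SE 0.43, limma adjusted p = 0.986). Without control clone D3, whose OPC library was also low in the mitotic genes, Espl1 was called lower in the null OPCs (-0.71, adjusted p = 0.0469). The ratio of Pttg1 to Espl1, which no scaling between libraries can alter, was 0.763, 2.38 and 0.571 in control D7, D3 and E8 and 16.0, 23.1 and 29.3 in null 3F, D6 and 7F. At DIV4 it ranged from 17.6 to 29.5 in control and from 8.60 to 19.8 in null clones, with Espl1 itself at 0.373 or less in every library.

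Of the 9 partners, 2 were called higher in null OPCs, Stag2 and Wapl, and none lower, where 12% of all genes tested were called and 6.03% were called higher. The median log2 difference of the 9 partners was 0.33 against 0.04 over all genes. Neither Stag2 nor Wapl was called under quantile normalization. On deposited TPM all 8 partners tested were called higher, as were 80.7% of all genes, with a median over all genes of 1.5. Without control clone D3, 1 partner (Espl1) was called, against 17.3% of all genes. At DIV2 and at DIV4 none of the 9 was called by limma or had an unadjusted p under 0.05, where 2.8% and 4.82% of all genes were called.

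**Figure D3:**
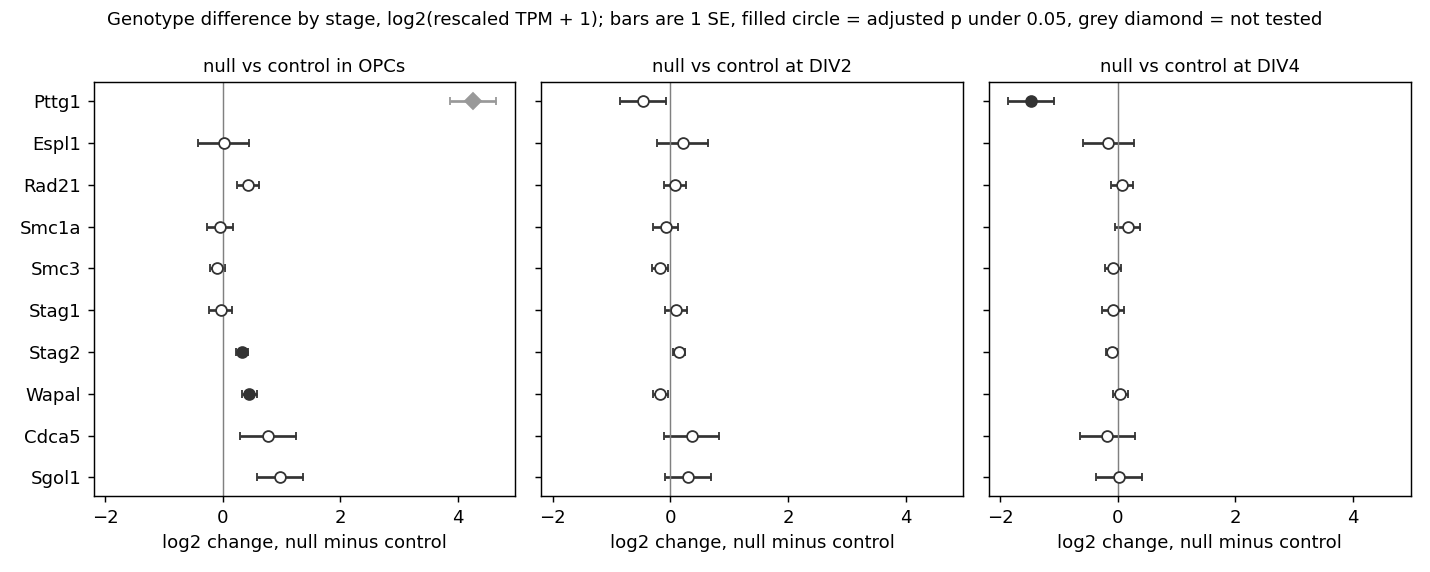
Log2 difference of null minus control for the 10 genes in OPCs, at DIV2 and at DIV4, on log2(rescaled TPM + 1), with bars of 1 SE. Filled circles (Stag2 and Wapl in OPCs, Pttg1 at DIV4) passed an adjusted p of 0.05, and the grey diamond at 4.26 is Pttg1 in OPCs, which was not tested.

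The ring subunits showed no called genotype difference at any stage. Rad21, the subunit that separase cuts, held 33.6, 17.3 and 33.5 rescaled TPM in control D7, D3 and E8 OPCs and 42.9, 34.4 and 33.5 in null 3F, D6 and 7F OPCs. Its difference was 0.43 (SE 0.19, limma adjusted p = 0.153), and it was 0.13 without control clone D3. Smc1a was 18.9, 12.2 and 26.7 in control and 15.1, 21.5 and 17.1 in null OPCs. Smc3, its partner in the ring, was 14.9, 13.6 and 17.4 in control and 13.2, 15.9 and 13.8 in null OPCs. Both overlapped between genotypes, with differences of -0.05 (SE 0.21) for Smc1a and -0.09 (SE 0.13) for Smc3. Summed over Rad21, Smc1a and Smc3, 1 unit of core cohesin RNA was matched by 0.0606, 0.0280 and 0.0485 units of Pttg1 in control D7, D3 and E8 OPCs. In null 3F, D6 and 7F OPCs it was matched by 0.996, 0.922 and 1.19 units. By DIV4 this ratio was 0.133 to 0.300 in control and 0.0269 to 0.118 in null clones.

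Of the alternative Stag subunits, Stag1 did not differ (10.5, 8.66 and 16.8 in control against 12.8, 9.71 and 11.6 in null OPCs). Stag2 was 25.8, 25.5 and 25.1 rescaled TPM in control D7, D3 and E8 and 27.9, 34.0 and 35.4 in null 3F, D6 and 7F OPCs. The groups did not overlap, and rescaled TPM + 1 was 1.26-fold higher in null OPCs (log2 difference 0.33, SE 0.10, limma adjusted p = 0.0466). That call was lost without any control clone and without null clone D6 or 7F (log2 difference 0.26 to 0.34, adjusted p = 0.0624 to 0.301). Leaving out null clone 3F, the lowest of the null values, widened the difference. In that fit 1 of the 9 partners was called, and it was not Wapl. Stag2 made up 68.5% ± 7.74 of summed Stag1 and Stag2 in control OPCs and 73.9% ± 4.78 in null ones (SD, n = 3), and the genotypes overlapped.

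The transcripts assigned to Stag2 differed more than its sum. ENSMUST00000069619 held 4.00, 1.48 and 6.10 rescaled TPM in control D7, D3 and E8 and 12.7, 11.9 and 16.6 in null 3F, D6 and 7F OPCs, with no overlap. ENSMUST00000115073 held 14.6, 19.3 and 15.0 in control and 10.3, 16.2 and 12.1 in null OPCs, which overlapped. The share of ENSMUST00000069619 was 15.2% ± 9.28 in control and 42.5% ± 6.48 in null OPCs, 37.1% ± 3.87 and 36.7% ± 13.5 at DIV2, and 27.6% ± 12.1 and 56.0% ± 4.50 at DIV4. No test was run on transcripts, and both encode protein in the annotation.

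Wapl, the release factor, was 12.9, 15.0 and 16.8 rescaled TPM in control D7, D3 and E8 and 22.9, 17.7 and 21.6 in null 3F, D6 and 7F OPCs. The groups did not overlap, and rescaled TPM + 1 was 1.37-fold higher in null OPCs (log2 difference 0.45, SE 0.12, limma adjusted p = 0.0305). The call was lost without control clone D7 or D3 or null clone 3F or 7F (adjusted p = 0.0508 to 0.194). A short noncoding transcript of the gene, ENSMUST00000172658, held 1.19 ± 1.39 in control and 6.09 ± 3.47 in null OPCs, while the leading coding transcript ENSMUST00000048263 held 7.92 ± 1.73 and 9.19 ± 0.45 (SD, n = 3). Most of the difference between the gene means of 14.9 and 20.7 was thus in the noncoding transcript.

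Among the OPC libraries, the protectors Cdca5 and Sgol1 were lowest in control D3. Cdca5 was 9.39, 0.655 and 7.58 rescaled TPM in control D7, D3 and E8 and 7.74, 8.15 and 8.19 in null 3F, D6 and 7F OPCs. Sgol1 was 6.06, 0.780 and 5.52 in control and 7.34, 6.43 and 9.14 in null OPCs. The genotypes overlapped for Cdca5 and did not overlap for Sgol1. The differences of 0.77 (SE 0.47) for Cdca5 and 0.98 (SE 0.39) for Sgol1 did not pass the test (adjusted p = 0.303 and 0.114), and without control clone D3 they were -0.07 and 0.34. Without control clone D7, Sgol1 was called higher (1.33, adjusted p = 0.045). Espl1, Cdca5 and Sgol1 passed the filter on low values (a mean of at least 1 over the 18 libraries) only through their OPC values.

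Pttg1 did not follow the mitotic genes between the genotypes in OPCs. Cdk1, the mitotic kinase, held 108, 5.87 and 101 rescaled TPM in control D7, D3 and E8 and 77.5, 104 and 76.5 in null 3F, D6 and 7F OPCs. Ube2c, the ubiquitin-conjugating enzyme of the anaphase-promoting complex, held 66.5, 8.60 and 63.6 in control and 49.5, 62.0 and 55.2 in null OPCs. Control clones D7 and E8 were thus within or above the range of the null clones in both genes, and Pttg1 was at 4.08 and 3.76 in the same libraries. Cyclin B1 (Ccnb1), which shares 27.7% of its 31-base words with other genes and is uncertain for that reason, was 85.7, 11.5 and 68.8 in control and 86.2, 97.4 and 86.8 in null OPCs. The ratio of Pttg1 to the sum of the 14 mitotic genes was 0.00494, 0.0205 and 0.00597 in control D7, D3 and E8 OPCs and 0.0969, 0.0844 and 0.111 in null 3F, D6 and 7F OPCs.

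In differentiating cells that ratio was ordered the other way. At DIV2 it ranged from 0.159 to 0.259 in control and from 0.0503 to 0.0730 in null clones. At DIV4 it ranged from 0.114 to 0.166 in control and from 0.0407 to 0.0985 in null clones. The genotypes did not overlap at either stage. The control OPC ratios, 0.00494 to 0.0205, lay below those of every other group. The null OPC ratios, 0.0844 to 0.111, overlapped those of null clones at DIV4. The mitotic sum itself was 20.0 to 31 in control and 37.4 to 86.4 in null clones at DIV2, and 46.3 to 75.0 and 24.2 to 44.2 at DIV4. Fewer dividing cells and less RNA per cell cannot be told apart in such bulk libraries.

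**Figure D4:**
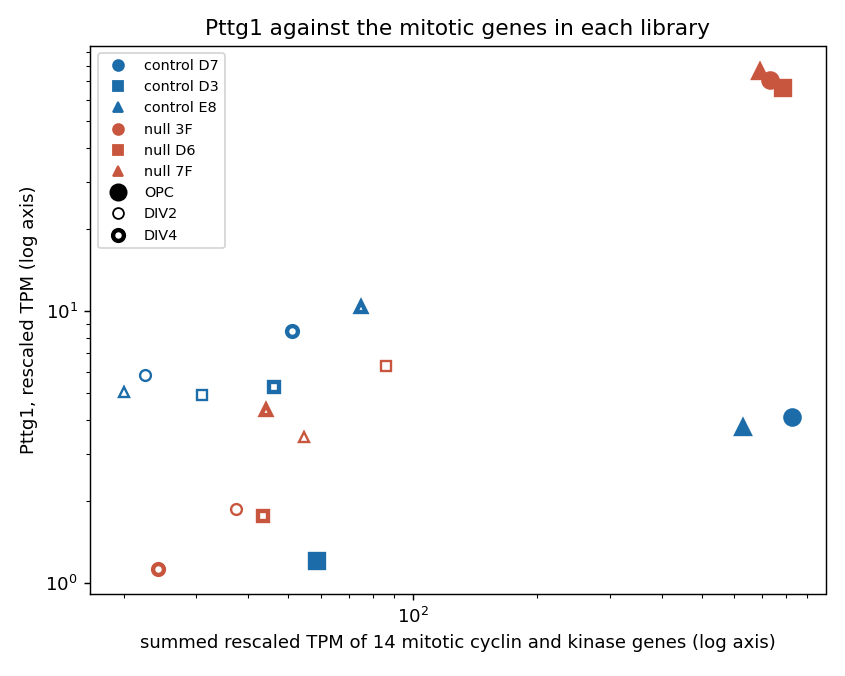
Pttg1 against the summed level of 14 mitotic cyclin and kinase genes in each of the 18 libraries, both in rescaled TPM on log axes, with large filled symbols for OPC, thin open ones for DIV2 and thick open ones for DIV4. Control D7 and E8 OPCs share the mitotic level of the null OPCs (630 to 827 on the horizontal axis) but hold 4.08 and 3.76 of Pttg1.

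The other genes of the pathway were taken as lists. None of the 14 mitotic cyclin and kinase genes was called between genotypes in OPCs (3 had an unadjusted p under 0.05, limma), with a median difference of 1.04. Over all genes 12% were called, and 3540 of 12462 had an unadjusted p under 0.05. Without control clone D3 the median was -0.16, and 2 of the 14 were called lower, as were 1012 of all 12462 genes. On deposited TPM all 14 were called higher, as was every tested gene of the other pathway lists in OPCs. Of all 12894 genes tested on that scale, 80.7% were called higher. Of 19 genes of the anaphase-promoting complex and its regulators, which direct securin to degradation, 2 were called higher in null OPCs, where 6.03% of all genes were. Without control clone D3, 3 were called higher and 1 lower, where 17.3% of all genes were called. Its subunit Cdc27 was 18.6, 10.4 and 12.7 rescaled TPM in control D7, D3 and E8 and 26.0, 23.8 and 24.3 in null 3F, D6 and 7F (log2 difference 0.82, SE 0.18, limma adjusted p = 0.00925). The subunit Anapc4 was 19.1, 16.3 and 16.1 in control and 22.5, 23.6 and 25.5 in null OPCs (log2 difference 0.45, SE 0.10, limma adjusted p = 0.00755). Both had no overlap between genotypes. The call on Cdc27 was lost without null clone 3F or 7F, and that on Anapc4 without 7F.

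None was called in OPCs among 8 spindle checkpoint genes (3 with an unadjusted p under 0.05), 8 condensin genes (1) and 8 genes of cohesin loading, release and acetylation (0). Of all 12462 genes, 3540 had an unadjusted p under 0.05 by limma. Without control clone D3, 1 spindle checkpoint and 1 condensin gene were called lower and 1 gene of the cohesin loading list higher. Of all genes, 17.3% were called in that fit. At DIV2 and DIV4 no gene of these lists was called by limma with all clones in the fit. Unadjusted p under 0.05 was reached at DIV2 by 2 mitotic and 1 anaphase-promoting complex gene (1813 of all 12462 genes), and at DIV4 by 3 anaphase-promoting complex genes and 1 cohesin loading gene (2554 of all genes). With control clone D3 left out, 2 mitotic genes were called higher at DIV2, where 2.47% of all genes were called. At DIV4, 1 cohesin loading, 1 anaphase-promoting complex, 1 mitotic and 2 condensin genes were then called lower, where 8.71% of all genes were called. The 4 meiotic cohesin genes in the table did not pass the filter on low values.

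With differentiation, most partners fell. Espl1, Cdca5 and Sgol1 passed the filter only through their OPC values (a mean under 1 over the 12 differentiating libraries), so their falls are described and left out of the next count. Of the other 6 partners, 4 fell from OPC to DIV4 in control clones (Rad21, Smc1a, Smc3 and Stag1) and 5 in null clones (these and Stag2), where 16.2% and 16.8% of all genes were called lower. Wapl was called in neither genotype. None of the 9 changed differently in the null clones by the interaction test (limma, 2 with an unadjusted p under 0.05), where 2.78% of all genes were called. On deposited TPM all 8 tested were called in that test, as were 73.5% of all genes. None of the 6 partners counted above was called lower there with differentiation in null clones, where 4.42% of all genes were. Cdca5 fell by 1.55 in control and 2.5 in null clones on the log2 scale, and Sgol1 by 1.58 and 2.54. Espl1 fell by 1.66 and 1.84, to 0.320 ± 0.0461 rescaled TPM in control and 0.180 ± 0.0455 in null clones at DIV4 (SD, n = 3).

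Among the ring subunits and their Stag partners the changes were smaller. Rad21 fell by 0.57 in control and 0.93 in null clones, Smc1a by 1.07 and 0.86, Smc3 by 0.51 and 0.50, and Stag1 by 0.61 and 0.66. At DIV4 Rad21 held 17.9 ± 1.14 rescaled TPM in control and 18.9 ± 1.38 in null clones (SD, n = 3), which overlapped. Stag2 fell by 0.54 in null clones (adjusted p = 0.000983) and its change of -0.10 in control clones did not pass the test. The calls on all 9 partners, Espl1, Cdca5 and Sgol1 included, varied with the clones in the fit. In control clones 7 were called with every clone, 1 without clone D7 and 2 without clone E8. Of all 12462 genes, 4021, 2346 and 3052 were called in these fits. In null clones 8 partners were called with every clone and 5 to 6 with a clone left out, against 4150 and 2154 to 2580 of all genes. These counts include the 3 genes that passed the filter only through OPCs, which favours a fall. Of the other 6 partners, 4 in control and 5 in null clones were called with every clone. On deposited TPM, where the median of all genes was 2.01 higher at DIV4 than in OPCs of control clones, the directions of Rad21, Smc1a, Smc3, Stag1, Stag2 and Cdca5 in control clones turned to positive (87.9% of all genes were called higher), as did those of Rad21, Smc3 and Stag2 when libraries were scaled to their protein-coding sum. The ratio of Cdca5 to core cohesin, free of scaling, was 0.139, 0.0152 and 0.0976 in control D7, D3 and E8 OPCs and 0.0253, 0.0139 and 0.0288 in the same clones at DIV4.

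The pathway lists were counted in the same way, leaving out 2 mitotic genes (Plk1 and Mki67), 2 spindle checkpoint genes, 1 condensin gene and 2 genes of the cohesin loading list (Esco2 and Gsg2) that passed the filter only through OPCs. All 12 other mitotic genes fell from OPC to DIV4 in both genotypes, with medians of -2.15 in control and -3.98 in null clones. Over all genes, 16.2% were called lower in control and 16.8% in null clones. On deposited TPM all 12 fell in null clones, but none fell in control clones and the median there was 0.18. Of 6 spindle checkpoint genes, 5 fell in control and 4 in null clones, among them the checkpoint kinase gene Bub1 (by 1.83 and 3.42) and Mad2l1 (by 1.48 and 3.11). Of 7 condensin genes, 4 fell in control and 6 in null clones, and without control clone D3 all 7 fell in control clones, where 17.5% of all genes were called lower. Of 19 anaphase-promoting complex genes, 7 fell in control and 12 in null clones, with Ube2c falling by 2.58 and 3.99. On deposited TPM no spindle checkpoint, condensin or anaphase-promoting complex gene was called lower in control clones, where 29 of all 12894 genes were. Called higher there were 3 of the 6 spindle checkpoint, 4 of the 7 condensin and 16 of the 19 anaphase-promoting complex genes. Of the 12 mitotic genes 1 was called higher, and of all genes 87.9% were. Of the 6 cohesin loading, release and acetylation genes, 1 rose in each genotype and none fell. Of all 12462 genes, 2007 were called higher in control and 2051 in null clones. Mau2, a cohesin loader subunit, rose by 0.39 in control and 0.52 in null clones. Leaving out control clone D3, 2 rose and 2 fell in control clones, where 2274 of all genes were called higher and 2183 lower. The 2 that fell were Pds5a and Pds5b, named here after their values were seen. Gsg2 (haspin), the kinase of histone H3 at centromeres, changed by -1.45 in control and -1.83 in null clones, and Esco2, a cohesin acetyltransferase, by -1.26 and -2.83.

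**Figure D5:**
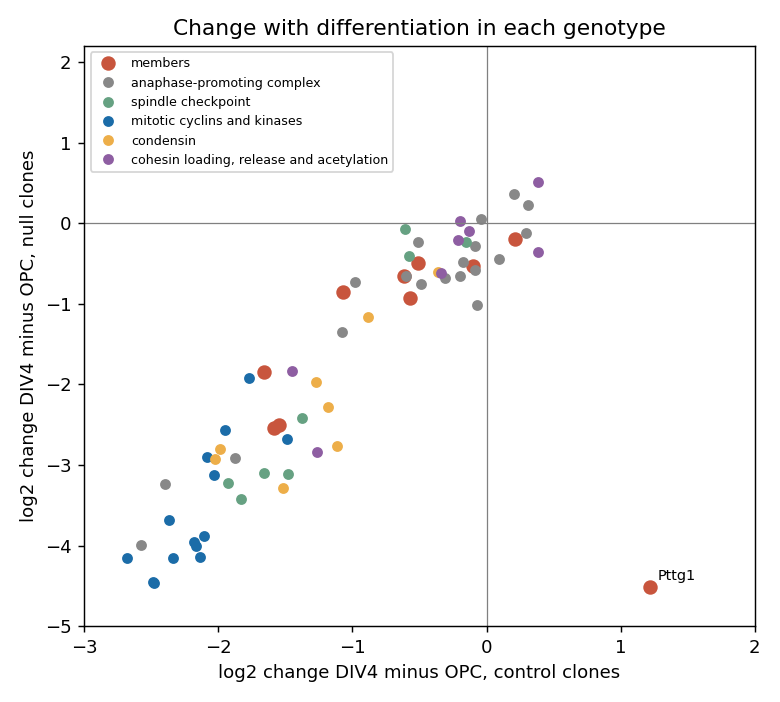
Log2 change from OPC to DIV4 in control clones (horizontal) and null clones (vertical) for the 10 members and the genes of 5 pathway lists, on log2(rescaled TPM + 1). The listed genes run from about 0 down to the mitotic genes, which lie below the diagonal. Their medians over 12 genes were -2.15 in control and -3.98 in null clones, and -3.12 in control without clone D3. No listed gene was called in the interaction test. Pttg1 lies apart at 1.22 and -4.51.

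No gene next to Pttg1 showed an OPC difference of its size. The nearest gene on each side was higher in every null than in every control OPC library. Slu7, a splicing factor gene that begins 7.49 kb away on the side of the Pttg1 start, held 11.8, 14.4 and 12.6 rescaled TPM in control D7, D3 and E8 and 15.3, 19.5 and 22.4 in null 3F, D6 and 7F OPCs (log2 difference 0.52, SE 0.17, limma adjusted p = 0.0558). At DIV4, where Pttg1 was lower in the null clones, Slu7 was higher there (log2 difference 0.80, SE 0.17, limma adjusted p = 0.0134), with 16.5, 13.1 and 12.3 in control and 25.5, 26.4 and 23.0 in null clones. On deposited TPM that call was lost (adjusted p = 0.349), as it was without control clone E8 or any null clone. Atp10b, the nearest tested gene on the other side at 158 kb, held 8.22, 5.82 and 5.11 in control and 14.5, 9.11 and 9.84 in null OPCs (log2 difference 0.72, SE 0.48, limma adjusted p = 0.349). Without control clone D7, Slu7 and Atp10b were both called higher in null OPCs, and Slu7 also without D3. Ccng1 (cyclin G1), 2665 kb away, was called lower in the null clones in OPCs (-1.12, SE 0.26, adjusted p = 0.0135; 0.91 on deposited TPM) and at DIV4 (-1.16, SE 0.26, adjusted p = 0.0212), and its calls were lost without null clone 3F or 7F in OPCs and without any null clone at DIV4. Of the other 5 neighbours (A230004M16Rik, Nudcd2, Ccnjl, Pwwp2a and Ttc1), none was called at any stage with all clones in the fit, with OPC differences from -0.02 to 0.84. Of these, Nudcd2 was called higher in null OPCs and at DIV2 without control clone D7, and A230004M16Rik in OPCs without null clone D6.

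Over the 18 libraries, the genes whose log2(rescaled TPM + 1) ran most like that of Pttg1, among 7553 other genes with a mean of at least 5, were Arl6ip1 (Pearson r 0.90), Med30 (0.87), Pstk (0.86), Ccnl1 (0.85), Serinc5 (0.84), Tcp1 (0.83), Dph3 (0.82) and Ptges3 (0.82). These values are a description over libraries that share clones, and they lean on the 3 null OPC libraries: over the 12 differentiating libraries the same 8 genes had r from 0.26 to 0.73. Of the 6 partners with a mean of at least 5 (Espl1, Cdca5 and Sgol1 were below it and not ranked), the one most like Pttg1 was Stag2, at rank 54 (r 0.74), followed by Rad21 at rank 231 (0.65). Arl6ip1 itself ranged from 39.8 to 73.7 rescaled TPM in control and from 89.5 to 127 in null OPCs, a much smaller gap than that of Pttg1. Ptges3 shares 20.6% of its 31-base words with other genes and is uncertain.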

How the data were processed

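The authors deposited TPM per transcript for 18 libraries, made with a stranded total RNA kit after removal of ribosomal RNA, per the labels' protocols. The submitters' processing notes name STAR, Picard and the build mm10, without roles or versions, and the annotation and the quantifier are not given in the sources used here. The deposited transcript length was used only to describe transcripts. TPM was summed by gene symbol over 93666 transcripts, after 150 transcript rows whose gene names had turned into dates were restored. It was divided by median-of-ratios factors from 11432 genes above 0 in every library. The 12462 genes with a mean of at least 1 rescaled TPM entered limma (version 3.58.1, R version 4.3.3) as log2(rescaled TPM + 1), with 1 mean per group over 18 libraries, eBayes with a trend and Benjamini-Hochberg adjustment within each of 6 comparisons. A gene was called at an adjusted p under 0.05. The fit was tested on simulated data. Coordinates are from GENCODE M21 (GRCm38), which held 96.5% of the transcript identifiers. A gene that shares at least 10% of its 31-base words with others is reported as uncertain.

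The members and the gene lists were chosen with earlier results of these data known. The text names the members with their transcripts of mean at least 1, Thap1, up to 3 called genes of each list and comparison with a mean of at least 5, the 4 nearest genes on each side of Pttg1 with a mean of at least 1, and the 8 genes most like Pttg1. The list members in the plots, and Ube2c, Cdk1 and Ccnb1 in the OPC comparison, come from the same lists. The pairing of stages comes from the clones, since each clone was sampled at 3 stages. Libraries of the same clone deviated together only weakly (mean r 0.12, from -0.009 to 0.424 over 18 pairs, against -0.06 between clones). The alternatives tried were other scalings, pseudocounts and filters, no trend, a fold threshold, fits without the uninvolved libraries, fits without 1 clone, and clone as a replicate block.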

Additional observations from a re-analysis of the deposited data

Results flagged for a closer look

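The change of Pttg1 from OPC to DIV4 differed between the genotypes. It was 1.22 in control and -4.51 in null clones on log2(rescaled TPM + 1), a difference of -5.74. Pttg1 was chosen for its OPC values, which enter this difference, so it is given without a test. It was -5.59 without control clone D3 and -7.18 on deposited TPM.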

How the results depend on the processing

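TPM holds no depth, so no counting error is given, and 3 clones per group limit precision. Of 1389 single-gene values under the alternatives, 1226 stayed on their side of the threshold (54 of these changed sign while called in neither fit), 102 lost their call, 34 gained one, 21 that were called in either fit changed sign, and 6 are OPC-based values of Pttg1, which carry no test, that moved by more than the spread. The cause of each change below was not tested. Leaving out clones or fitting fewer libraries leaves fewer samples and also changes the spread that is used, and the counts went both ways. A stricter threshold calls fewer genes by construction.

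For null vs control in OPCs, 1493 genes were called (50.4% of them higher). The count was 10446 on deposited TPM (99.6% higher), 1615 with quantile normalization (37.0%), 2644 with protein-coding scaling (94.2%), 554 at a log2 change of at least 1, 242 with only the libraries compared, and 336 to 2359 with a clone left out. Of the 9 partners, 2 were called, against 8 on deposited TPM, 0 with quantile normalization, 6 with protein-coding scaling, 1 without the mean trend, 0 at a log2 change of at least 1, 0 with only the libraries compared, and 0 to 1 with a clone left out. Log2 differences that changed sign in OPCs on deposited TPM were Smc1a 1.86, Smc3 1.76, Stag1 1.77 and Ccng1 0.91. With protein-coding scaling they were Smc1a 0.54 and Thap1 -1.33, and Espl1 ran from -0.71 (without control clone D3) to 0.45 with a clone left out. With that scaling, which drops noncoding transcripts by construction, Thap1 was -1.26 at DIV2 and -1.55 at DIV4.

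For null vs control at DIV2, the count was 349 (59.0% higher), 203 on deposited TPM (42.9%), 210 at a mean of at least 5, 228 at a log2 change of at least 1, and 110 to 646 with a clone left out. For null vs control at DIV4, it was 601 (55.9% higher), 358 on deposited TPM (32.1%), 930 with quantile normalization, 356 at a log2 change of at least 1, 163 with only the libraries compared, and 102 to 1085 with a clone left out. No partner was called at either stage under any alternative. Pttg1, null vs control at DIV4, was -1.48 and was no longer called at pseudocount 0.1 (-1.86), with no filter (-1.48) or with only the libraries compared (-1.48), and ran from -1.19 to -1.86 with a clone left out. Pttg1, null vs control at DIV2, ran from -0.13 to -0.81 with a clone left out.

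For DIV4 vs OPC in control, 4021 genes were called (49.9% higher), 11364 on deposited TPM (99.7%), 6010 with protein-coding scaling (94.0%), 1790 at a log2 change of at least 1, 260 with only the libraries compared, and 2346 to 4457 with a clone left out. Of all 9 partners, Espl1, Cdca5 and Sgol1 included, 7 were called. The count was 4 at a mean of at least 5, a filter that leaves out these 3 genes. It was 4 at a log2 change of at least 1, 0 with only the libraries compared, and 1 to 7 with a clone left out. On deposited TPM the changes were Rad21 2.02, Smc1a 1.43, Smc3 1.95, Stag1 1.77, Stag2 2.47 and Cdca5 0.14, and with protein-coding scaling Rad21 0.14, Smc3 0.074 and Stag2 0.62. For DIV4 vs OPC in null, 4150 were called (49.4% higher), 2912 on deposited TPM (80.4%) and 4766 with protein-coding scaling (80.9%). The count was 1997 at a log2 change of at least 1, 5368 with only the libraries compared, and 2154 to 2580 with a clone left out. Of all 9 partners, Espl1, Cdca5 and Sgol1 included, 8 were called, and 8 with only the libraries compared. The count was 2 on deposited TPM (Cdca5 and Sgol1) and 5 with protein-coding scaling, where Wapal was 0.51. It was 5 at a mean of at least 5, 3 at a log2 change of at least 1, and 5 to 6 with a clone left out. For interaction DIV4 vs OPC, 347 were called (52.2% higher), 9481 on deposited TPM (0.4%), 568 with quantile normalization (68.8%), 310 with protein-coding scaling (12.9%), 72 with only the libraries compared, and 16 to 1165 with a clone left out. No partner was called except 8 on deposited TPM (Smc1a -1.85, Smc3 -2.01). With clone as a replicate block, 1533 genes were called in OPCs, 378 at DIV2, 630 at DIV4, 4532 and 4666 between stages and 517 in the interaction, and no call on the members changed.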
